A study of Mus musculus with 4 samples.

Results

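Gdf15, the mouse gene for growth differentiation factor 15 (Ensembl ENSMUSG00000038508), was followed through the response of the carotid artery to wire injury. It is 1 of 31053 genes listed in the count matrices. The gene was picked for its levels by cell class and day, so those levels are given as a description without a test. The genes that go with it were picked by their correlation with Gdf15 across macrophages of days 7 and 14, and the macrophages of day 3 took no part in that choice.

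Single cells came from carotid arteries of male C57BL/6 mice on a chow diet, before injury (day 0) and 3, 7 and 14 days after it. A wire had been passed through the left carotid at 11 weeks of age, which strips the endothelial lining. Vessels of several mice were pooled into 1 library per time point, vessels with a thrombus were discarded and dead cells were removed, so no value below has a replicate and a day cannot be told apart from its library. All mice were of the same strain and sex, and female mice were not sampled. In time order the libraries yielded 333, 1689, 3001 and 1138 barcodes called as cells, and 281, 1403, 2690 and 1029 of these were used. Total depth was 2672722, 18989081, 27973418 and 13329564 unique molecular identifiers (UMIs).

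GDF15 is a distant member of the transforming growth factor beta family. It is made as a precursor, cut by furin-type proteases and secreted, and it acts on food intake through the receptor GFRAL, which signals together with RET in the hindbrain. Its gene is switched on by cellular stress, through the integrated stress response factors ATF4 and CHOP (encoded by Ddit3), p53, EGR1 and NRF2 (encoded by Nfe2l2), and macrophages are among its known sources in injured and atherosclerotic vessels.

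RefSeq gives Gdf15 a pair of start sites on the minus strand of chromosome 8, at 70632456 and 70632095 (GRCm38.p6), 361 bases apart. The promoter windows run from 250 bases before each start site to 50 bases after it and are shown here because most of the regulators above are known through short DNA motifs. Capitals mark every match to the motifs searched.
Gdf15 upstream start, chr8:70632407-70632706, minus strand: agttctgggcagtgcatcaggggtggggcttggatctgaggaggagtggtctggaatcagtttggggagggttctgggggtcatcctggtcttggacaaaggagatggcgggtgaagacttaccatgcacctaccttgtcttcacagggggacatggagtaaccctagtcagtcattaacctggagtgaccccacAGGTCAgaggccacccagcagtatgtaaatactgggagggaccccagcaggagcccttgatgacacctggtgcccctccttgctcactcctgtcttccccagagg
Gdf15 downstream start, chr8:70632046-70632345, minus strand: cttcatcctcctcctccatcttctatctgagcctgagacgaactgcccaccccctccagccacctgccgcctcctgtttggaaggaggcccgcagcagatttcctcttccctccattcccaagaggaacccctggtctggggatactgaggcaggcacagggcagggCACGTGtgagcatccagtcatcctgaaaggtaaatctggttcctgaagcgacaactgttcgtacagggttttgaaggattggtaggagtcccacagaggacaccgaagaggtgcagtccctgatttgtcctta
The letters searched on both strands were CACGTG (E-box), TGANTCA (AP-1), TGACGTCA and its core TGACG (cAMP response element), TGATGNAA (C/EBP-ATF element), TGACNNNGC (antioxidant response element), AGGTCA (nuclear receptor site), TATAAA and GGGCGG. The upstream window held AGGTCA alone, 55 bases before the start site, and 16.3% of 32851 mouse promoter windows of this length hold that motif. The downstream window held CACGTG alone, 83 bases before the start site, and 7.15% of windows hold it. The letters of the other motifs were not in either window.

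Cells were assigned to classes by clustering and marker genes, and each class name stands for resemblance. Before the levels, some features of the libraries need stating. There were 152 barcodes that occurred in both the day 0 and day 3 libraries and 64 in both the day 7 and day 14 libraries. In the first pair the deeper copy had a median of 19880 UMIs and the shallower copy 759, and the profiles of a shared barcode correlated more closely than those of other barcodes (median r of 0.545 against 0.436). The shallower copy was left out, which removed 217 barcodes. Another 359 cells of day 7, with a median of 757 UMIs, stayed without a class. They held 29 Gdf15 UMIs in 27 cells (7.52%), or 47.5 CPM (31.8 to 68.2), above the named classes of that day other than macrophage-like cells, and what they are was not tested. Different clusters held the largest share of macrophages on different days: cluster 7 (Pf4, Ccl6) with 56.2% on day 3, cluster 17 (Plac8, Chil3) with 42.4% on day 7 and cluster 8 (Ms4a7, C1qa) with 49.5% on day 14. In the macrophage-like class, 18, 18 and 15 of 18 macrophage markers were seen in at least 10% of cells on days 3, 7 and 14, with a summed marker level of 25092, 24162 and 28231 CPM (UMIs of the gene per 1000000 UMIs of the group).

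Gdf15 was higher in the whole cell preparation of the later days. Over all cells there were 43, 341, 1304 and 871 Gdf15 UMIs on days 0, 3, 7 and 14, or 16.5, 18.8, 49.2 and 67.1 CPM. The day 3 level lay within counting error of day 0 (ratio 1.14, 95% interval 0.829 to 1.61), and the later levels lay 2.98-fold (2.20 to 4.14) and 4.06-fold (2.99 to 5.66) above day 0. The share of cells with a Gdf15 UMI did not follow, at 7.83%, 4.78%, 7.88% and 7.87%. All intervals here cover counting error of UMIs or cells only, are exact (Poisson for CPM, Clopper-Pearson for shares and conditional binomial for ratios) and do not hold the spread between mice. Since UMIs of 1 cell are not independent, the ratio intervals are too narrow for a comparison of cells.

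Macrophage-like cells held most of the Gdf15 of days 7 and 14. The day 0 library had 3 such cells and no Gdf15 UMI in them, which allows a level of up to 166 CPM (3 counts of the total). On day 3 there were 81 Gdf15 UMIs in 548 cells (15.0 CPM, 11.9 to 18.6), on day 7 1003 UMIs in 951 cells (105 CPM, 98.9 to 112) and on day 14 699 UMIs in 190 cells (463 CPM, 430 to 499). The level was therefore 7.03-fold (5.61 to 8.94) higher on day 7 than on day 3, and a further 4.40-fold (3.99 to 4.85) higher on day 14. While macrophage-like cells made up 39.1%, 35.4% and 18.5% of the cells of days 3, 7 and 14, they held 23.8%, 76.9% and 80.3% of the Gdf15 UMIs. Fibroblast-marker UMIs in the class also differed between days, with summed levels of 492, 987 and 992 CPM, and those of erythroid markers were 619, 90.2 and 9.94 CPM. Their part in the Gdf15 levels was not tested.

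**Figure D1:**
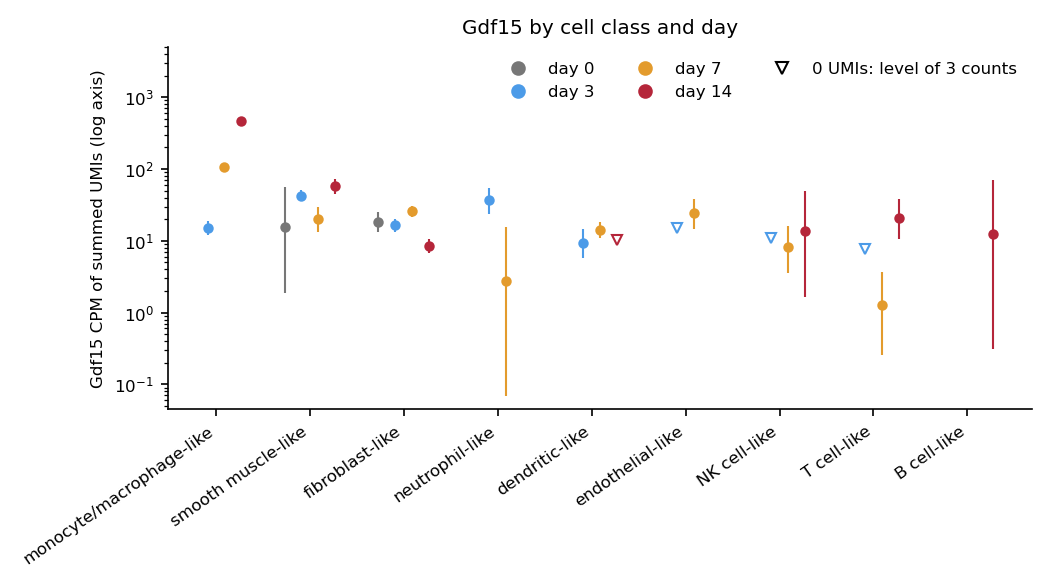
Gdf15 level in CPM of summed UMIs (log axis) by cell class and day. Points are the level in 1 library, bars the exact 95% Poisson interval, and open triangles the level that 3 counts would give where no UMI was counted. Class-day groups of under 20 cells are not drawn. The macrophage-like class goes from 15.0 to 105 and 463 CPM, while the other classes stay below 60 CPM.

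The share of macrophage-like cells with at least 1 Gdf15 UMI was 4.2% (2.68 to 6.23) on day 3, 11.3% (9.31 to 13.4) on day 7 and 20.5% (15.0 to 27.0) on day 14. The corresponding counts were 23, 107 and 39 cells. Median depth was 7787.5, 9032 and 6843 UMIs per cell, so the highest share was found at the lowest depth. After each cell was thinned to 2000 UMIs, which left out 50, 98 and 50 shallower cells, the shares were 1.20%, 6.68% and 12.9%. T cell-like cells, which served as the background, had 3 positive cells of 373 on day 7 (0.804%, median depth 5590 UMIs) and 0.298% after thinning, and 2 of 94 on day 14 (2.13%). On day 3 they had 0 of 65, with an interval of up to 5.52%, so the day 3 share of macrophage-like cells was not shown to exceed background. Other cells of day 7 gave a higher background, with 8 of 158 NK cell-like cells (5.06%) and the 7.52% of the unclassed cells, 26 of whose 27 positive cells had a single UMI. In macrophage-like cells 34 of the 107 positive cells of day 7 had 10 or more.

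**Figure D2:**
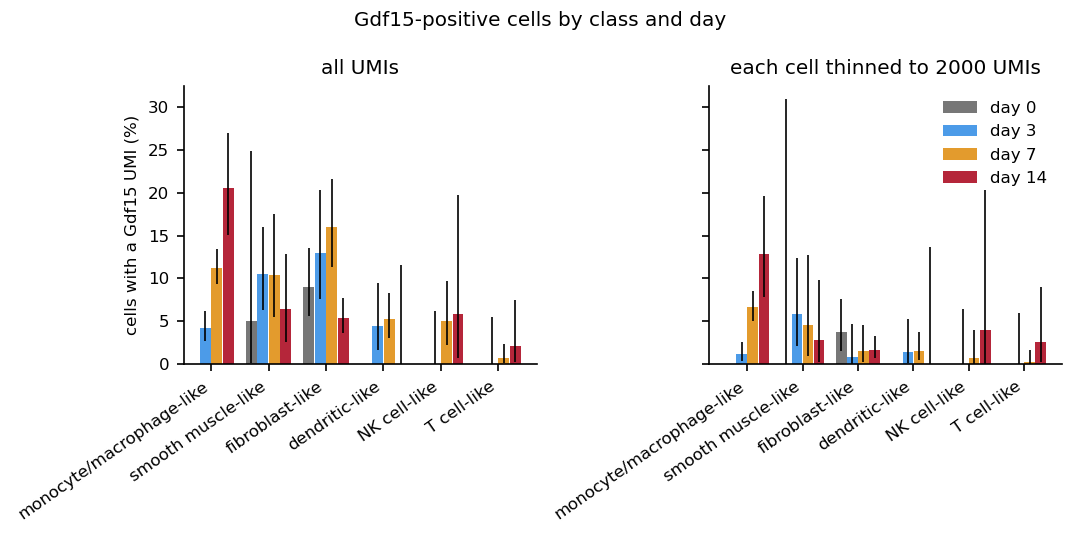
Share of cells with a Gdf15 UMI (%) by class and day, from all UMIs on the left and with each cell thinned to 2000 UMIs on the right. Bars are the share in 1 library and lines the exact 95% binomial interval. The macrophage-like share is lowest on day 3 and highest on day 14 in both panels (4.2% and 20.5%, and 1.20% and 12.9%), whereas the fibroblast-like share of day 7 is 16.0% before and 1.60% after thinning.

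Within the positive macrophages Gdf15 was very unevenly spread. A positive cell had a median of 1 Gdf15 UMI on day 3, 3 on day 7 and 4 on day 14, and the highest cell had 16, 83 and 133. Cells with 10 or more UMIs numbered 3, 34 and 13. The 5 cells of most Gdf15 UMIs contributed 54 of 81 UMIs on day 3, 252 of 1003 on day 7 and 430 of 699 on day 14. A few cells thus set much of the day 3 and day 14 levels. Without the 5 highest cells of each library, the levels were 5.07, 79.8 and 189 CPM, the day 7 over day 3 ratio became 15.7 (10.7 to 24) and the day 14 over day 7 ratio 2.36 (2.05 to 2.72). The order of the days stayed the same.

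**Figure D3:**
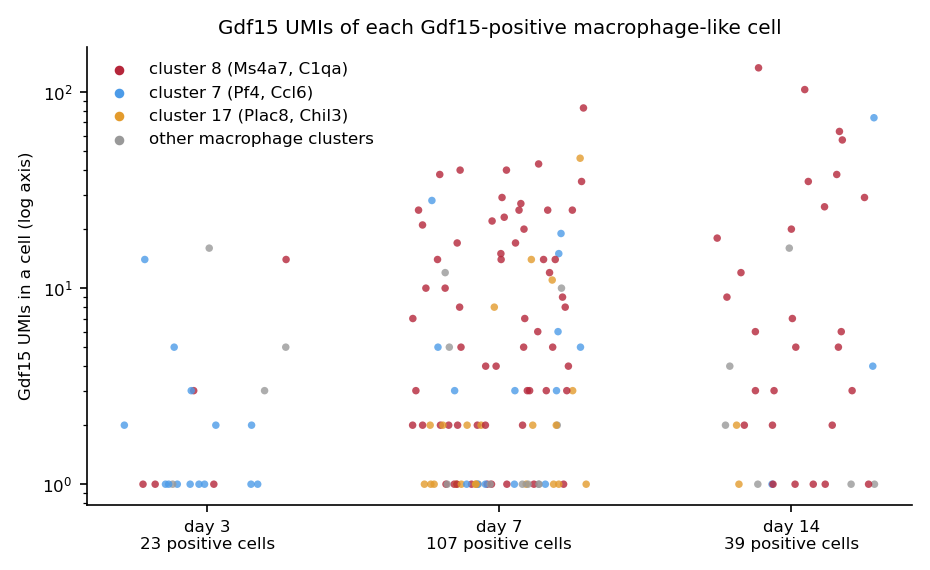
Gdf15 UMIs in each Gdf15-positive macrophage-like cell (log axis) on days 3, 7 and 14, spread sideways only for legibility and coloured by cluster. Most of the highest cells of days 7 and 14 belong to cluster 8, and the highest reach 83 and 133 UMIs.

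Cluster 8, led by the complement genes C1qa, C1qb and C1qc and by Ms4a7, a marker of mature macrophages, held most Gdf15 of the later days. Gdf15 and the genes of the lists below had been kept out of the genes used for clustering, although Gdf15 was among the 10 leading genes of this cluster, so its level here describes the cluster and is no test. The cluster had 31 cells and 47.3 CPM on day 3, 252 cells and 216 CPM on day 7, and 94 cells and 570 CPM on day 14. On day 3, 14 of its 20 Gdf15 UMIs lay in 1 cell, and on day 14 5 cells held 66.6% of them. It accounted for 76.8% of the macrophage Gdf15 UMIs of day 7 from 26.5% of the cells, and for 84.7% of those of day 14 from 49.5% of the cells. Both the size of the cluster and its level per UMI moved, since the level within it was 4.56-fold (2.93 to 7.51) higher on day 7 than on day 3 and 2.64-fold (2.37 to 2.95) higher on day 14 than on day 7. These sizes rested on few cells. Without the 5 highest cells of each day the day 14 over day 7 ratio was 1.38 (1.16 to 1.62), and without the day 3 cell of 14 UMIs the day 7 over day 3 ratio was 14.5 (6.64 to 39.7), both alternatives chosen after seeing the data. Its share of positive cells was 16.1%, 23.8% and 29.8%.

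The other macrophage clusters were lower or rested on single cells. Cluster 7, led by Pf4, Ccl6 and F13a1, had 11.3 CPM on day 3 and 73.8 CPM on day 7. Its 820 CPM on day 14 came from 13 cells, with 74 of 79 UMIs in 1 of them. Cluster 17, led by the monocyte genes Plac8 and Chil3, had 0 UMIs in 86 cells on day 3, which allows up to 4.36 CPM, 30.7 CPM on day 7 with 46 of 105 UMIs in 1 cell, and 22.8 CPM from 3 UMIs on day 14. Cluster 18 had 46.5, 55.3 and 260 CPM, but it was shallow, with a median depth 0.354 times that of its libraries, and none of the macrophage markers led it. In the cycling cells of the class, 16 of 17 Gdf15 UMIs of day 3 lay in 1 cell.

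Gdf15 UMIs were counted in fibroblast-like cells before injury. The day 0 library gave no usable background for them, since the 18 T cell-like cells had 0 UMIs, which allows up to 21.0 CPM. Fibroblast-like levels were 18.4 CPM (13.2 to 25.0) in 232 cells of day 0, 16.4 CPM in 123 cells of day 3, 25.7 CPM in 213 cells of day 7 and 8.45 CPM in 518 cells of day 14. The day 7 level was 1.56-fold (1.20 to 2.05) that of day 3, and the day 14 level was 0.329 times (0.247 to 0.436) that of day 7 and 0.458 times (0.309 to 0.687) that of day 0. The day 7 values rested on a few cells whose class was not settled. Cluster 10, whose leading genes Saa3, Cxcl5 and Lcn2 are acute-phase and chemokine genes, had 102 of the 153 UMIs of day 7 in 45 cells, or 47.9 CPM, with 52 of them in 1 cell. With another filter, resolution, doublet or barcode treatment, or each library clustered alone, 22 to 30 of these 45 cells stayed fibroblast-like, with 3 to 20 Gdf15 UMIs. The fibroblast-like level of day 7 was then 9.70 to 13.9 CPM and its ratio to day 3 0.457 to 0.680, below 1 in all 6 of these alternatives, and the day 14 over day 7 ratio was 0.601 to 1.11. The day 14 over day 0 ratio was 0.920 with a separate clustering of each library. No direction between days 3 and 7 can therefore be given. The cluster led by C1qtnf3, which had 273 of the 518 cells of day 14, was at 6.35 CPM. These cells were deep, with a median of 38871 UMIs on day 3, and after thinning their positive shares were 3.78%, 0.870%, 1.60% and 1.68% against 9.05%, 13%, 16.0% and 5.41% unthinned.

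Smooth muscle-like cells showed no settled course. Their levels were 15.5 CPM (2 UMIs in 20 cells) on day 0, 42.4 CPM (35.3 to 50.6) on day 3, 20.0 CPM (13.1 to 29.3) on day 7 and 57.5 CPM (45.1 to 72.3) on day 14. The day 7 level was 0.471 times (0.296 to 0.723) that of day 3, and the day 14 level 2.88-fold (1.82 to 4.69) that of day 7. Few cells decided these values, as 36 and 19 of the 73 UMIs of day 14 lay in 1 cell each, and so did 43, 28 and 16 of the 124 UMIs of day 3. The mean of the CPM of each cell was 23.5, 23.6 and 21.2 on days 3, 7 and 14, which gives ratios of 1.01 and 0.897. Over 8 alternatives the day 7 over day 3 ratio was 0.235 to 1.72, above 1 in 4, and the day 14 over day 7 ratio 0.270 to 5.21, above 1 in 5. Nearly all Gdf15 of the class lay in cluster 5, led by the contractile genes Myh11, Tagln and Acta2.

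The Gdf15-high fibroblast-like and smooth muscle-like cells held little macrophage RNA. The 18 macrophage markers summed to 24848 CPM in macrophage-like cells. In the 18 fibroblast-like cells with at least 5 Gdf15 UMIs they summed to 151 CPM, against 326 CPM in fibroblast-like cells with none. In the 10 such smooth muscle-like cells the sum was 37.5 CPM against 255 CPM. The compared cells were unlike in depth, with medians of 53975.5 against 16421 UMIs and 56663.5 against 3100 UMIs. Median doublet scores were 0.0868 against 0.0574 and 0.0719 against 0.0476. Whether macrophage RNA adds to the Gdf15 of these cells was not tested. Both smooth muscle-like cells of day 14 with 36 and 19 Gdf15 UMIs had no UMI of any of these markers. The single neutrophil-like and T cell-like cells with 19 and 10 Gdf15 UMIs had marker sums of 5981 and 2711 CPM. Cells of these classes with no Gdf15 UMI had 3181 and 968 CPM. In the 6 dendritic-like cells with at least 5 Gdf15 UMIs the sum was 3829 CPM, against 2874 CPM in those with none. C1qa was at 528 against 35.4 CPM there. The endothelial-like cell with 17 Gdf15 UMIs had a sum of 449 CPM, against 611 CPM in those with none.

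In the remaining classes few Gdf15 UMIs were counted. Neutrophil-like cells had 36.9 CPM on day 3, with 19 of 25 UMIs in 1 cell, and 2.75 CPM on day 7. Dendritic-like cells had 9.43 and 14.1 CPM on days 3 and 7, with 14 of 21 and 21 of 62 UMIs in 1 cell each. They had no UMI in 30 cells of day 14, which allows up to 10.3 CPM. Endothelial-like cells, the lining that the wire removes, had no UMI in 40 cells of day 3 and 18 of day 14, which allows up to 14.9 and 62.7 CPM, and 17 of their 19 UMIs of day 7 lay in 1 cell of 138009 UMIs. NK cell-like cells had 8 UMIs in 8 of 158 cells on day 7, each cell with a single UMI. T cell-like cells had 1.26 CPM on day 7 and 21.1 CPM on day 14, with 10 of the latter 11 UMIs in 1 cell that also held 17 UMIs of the myeloid lysozyme gene Lyz2.

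The order of the classes changed between days. On day 3 smooth muscle-like and neutrophil-like cells were highest and could not be told apart within counting error (ratio 1.15, 0.743 to 1.84), and fibroblast-like and macrophage-like cells followed at levels 1.10-fold apart (0.804 to 1.5). On day 7 macrophage-like cells stood 4.10-fold (3.46 to 4.90) above the next class, fibroblast-like cells, and neighbours further down overlapped. In other clusterings the smooth muscle-like cells of day 7 reached up to 58.7 CPM, so the distance to the next class depends on how those cells are assigned. On day 14 they stood 8.06-fold (6.33 to 10.4) above smooth muscle-like cells, which stood 2.73-fold (1.44 to 5.71) above T cell-like cells. Macrophage-like cells thus had the highest level on days 7 and 14. Their place on day 3 was not settled, since fibroblast-like cells overlapped with them and the neutrophil-like level came mostly from 1 cell.

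RNA of the GDF15 receptor was not detected at this depth. Gfral had 0 UMIs in every library, so on day 7, with the most cells, 0 of 2690 cells had one, which allows a share of up to 0.112%. That limit is for cells with a Gfral UMI and not for cells that express the gene. Its co-receptor gene Ret had 3, 56, 83 and 43 UMIs in 3, 25, 29 and 27 cells of days 0, 3, 7 and 14. In macrophage-like cells, Ret had 8 UMIs on day 7 and none on days 3 and 14. Furin, which encodes a protease that cuts GDF15-type precursors, was present in macrophages at 150, 126 and 179 CPM on days 3, 7 and 14.

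To see which genes go with Gdf15, 8131 genes detected in at least 5% of macrophage-like cells on both days were ranked by the lower of their 2 Pearson r values with Gdf15 across the 951 cells of day 7 and the 190 cells of day 14. The cells of a day share a library and differ in depth, and no r exceeded 0.309 on day 7 or 0.443 on day 14, so these are weak relations in sparse counts that rank genes and show no link between single genes. The first 20 genes had a lower r between 0.194 and 0.284, the next gene had 0.188, and the median over all genes was 0.0135 and 0.00723. In rank order they were Ctsd, Cd63, Cxcl2, Trem2, Tnf, Cd83, Ms4a7, Olfml3, Ninj1, Syngr1, Sqstm1, Rasgef1b, Gadd45b, Ctsb, Atp6v1a, Lgmn, C5ar1, Tnfaip3, Cndp2 and Ccl3. The membership of the list depends on depth, since 11 of the 20 were among the first 20 when cells were thinned to 2000 UMIs.

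The levels of these 20 genes were then compared between Gdf15-positive cells (at least 1 Gdf15 UMI) and Gdf15-negative cells. Positive cells were deeper, with medians of 15580, 13336 and 12619 UMIs on days 3, 7 and 14 against 7540, 8498.5 and 5833, and when every cell was thinned to 2000 UMIs 19 and 15 of the 20 genes were higher by the rule given next on days 7 and 14. A gene was counted as higher when its CPM, with 10 CPM added, was at least 1.5-fold higher in positive cells. On day 7 this held for 20 of 20 genes and on day 14 for 15 of 20, against 2.63% and 5.82% of all genes compared. These counts follow from the choice of the genes. On day 3, which the choice did not use, it held for 16 of 20 genes against 7.36% of all genes, and the median ratio was 2.00, with the 20 genes ranging from 1.21 to 4.38. The day 3 comparison rested on 23 positive cells, and r was lower there, with a median of 0.0845 and 18 of 20 genes above 0 against a median of -0.00548 over all genes.

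**Figure D4:**
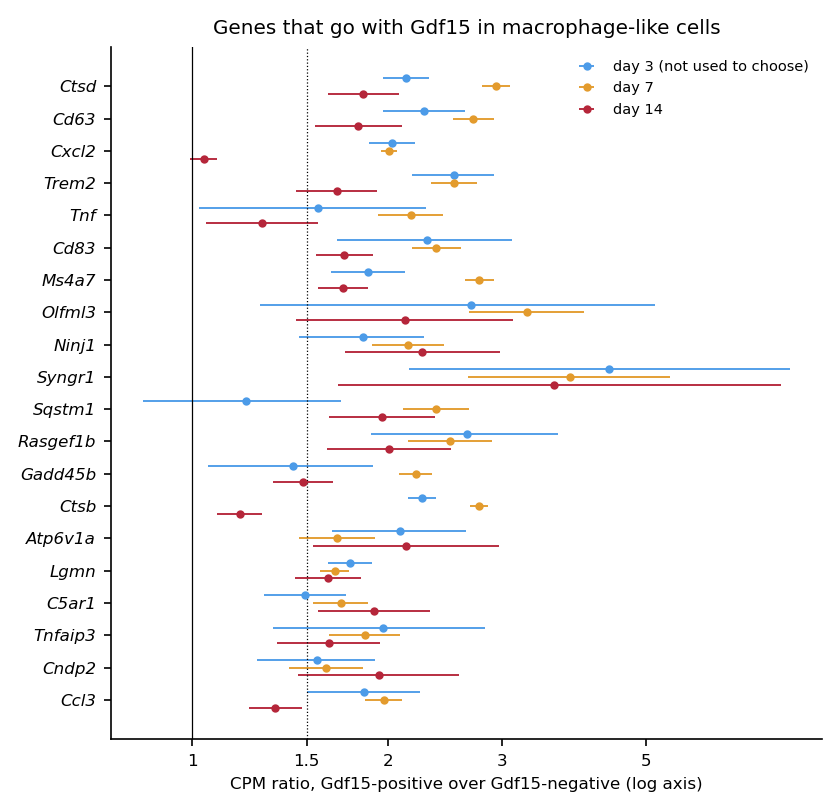
Ratio of CPM in Gdf15-positive over Gdf15-negative macrophage-like cells (log axis) for the 20 genes with the highest lower r, in rank order. Points are ratios of summed UMIs within 1 library, lines exact 95% intervals for counting error, and the dotted line marks 1.5-fold. All 20 genes lie above 1 on days 3, 7 and 14, with Sqstm1 on day 3 and Cxcl2 on day 14 spanning it.

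Of the 20 genes, several encode parts of the lysosome. Ctsd, an aspartic protease of the lysosome, was at 1631 CPM in positive against 555 CPM in negative cells on day 7 (2.94-fold, 2.79 to 3.08) and at 981 against 534 CPM on day 14 (1.84-fold, 1.62 to 2.08). Its ratio on day 3 was 2.14, but its r with Gdf15 on that day was -0.0169, the lowest of the 20 genes. Ctsb, a cysteine protease, was 2.76-fold higher on day 7 and 2.26-fold on day 3, but 1.18-fold (1.09 to 1.28) on day 14. Lgmn, the asparagine-specific protease legumain, was 1.75-, 1.66- and 1.62-fold higher on days 3, 7 and 14. Cd63, a tetraspanin of late endosomes, was 2.28-, 2.71- and 1.80-fold higher, and Atp6v1a, a subunit of the proton pump that acidifies lysosomes, 2.09-, 1.67- and 2.13-fold. Sqstm1, the autophagy receptor p62, was 2.38- and 1.96-fold higher on days 7 and 14, and its ratio of 1.21 (0.840 to 1.69) on day 3 spanned 1.

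Other genes mark the macrophage state. Trem2, a lipid receptor of macrophages that take up debris, was at 579 against 229 CPM on day 7 (2.53-fold, 2.33 to 2.74) and at 731 against 438 CPM on day 14 (1.67-fold, 1.45 to 1.92), with 2.53-fold on day 3. Ms4a7 was 1.87-, 2.77- and 1.71-fold higher on days 3, 7 and 14. C5ar1, the receptor of complement fragment C5a, was 1.49-, 1.69- and 1.91-fold higher. Cd83, an activation marker, was 2.30-, 2.38- and 1.72-fold higher. Syngr1, a vesicle membrane protein, had the highest ratio on each day (4.38, 3.81 and 3.6) at a low level of 36.4, 36.8 and 41.9 CPM in positive cells.

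Inflammatory genes formed another part of the list. Tnf, encoding tumour necrosis factor, was 2.17-fold (1.93 to 2.43) higher on day 7 and 1.28-fold (1.05 to 1.56) on day 14. Cxcl2, a neutrophil chemokine, was 2.01-fold higher on day 7 and at 5534 against 5316 CPM on day 14 (1.04-fold, 0.993 to 1.09). Ccl3 had ratios of 1.97 and 1.34 and Tnfaip3, an inhibitor of NF-kB signalling, of 1.84 and 1.62. Gadd45b, a stress-induced gene, had ratios of 2.21 and 1.48. Some of these genes, but not all, also had higher levels in the class as a whole on the later days. On days 3, 7 and 14, Cd83 was at 66.2, 259 and 1025 CPM, Cxcl2 at 992, 2555 and 5385 CPM and Ms4a7 at 411, 672 and 1396 CPM, whereas Ctsd was at 958, 730 and 676 CPM.

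Genes picked on 1 day alone carried over in part. Of the 50 genes with the highest r on day 7, 16 (32%) were at least 1.5-fold higher in positive cells of day 14 and 29 (58%) in those of day 3. Of the 50 with the highest r on day 14, 17 (34%) were higher on day 7 and 14 (28%) on day 3. The sets shared 8 genes, which is 16% of each. The shares of genes that were higher lay above the background of 7.36%, 2.63% and 5.82% on days 3, 7 and 14.

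Promoter windows were available for 17 of the 20 genes (all but Cd83, Ctsb and Cndp2). The E-box letters found in the downstream Gdf15 window occurred in 5 of their 20 windows, against 7.15% of all windows. Other letters searched were also held by a larger share of the partner windows, GGGCGG by 11 of 20 against 35.7% of all windows and TATAAA by 5 of 20 against 13.6%. TGACG was in 6 of 20 against 20.8%, AGGTCA in 4 against 16.3%, TGANTCA in 3 against 7.81%, TGACNNNGC in 3 against 12.4%, TGATGNAA in 1 against 3.97% and TGACGTCA in none against 1.79%. The E-box sites are printed with 7 bases on each side, fewer where the window ends, because CACGTG is the core of the motif bound by the MiT family of lysosomal gene regulators as well as by other factors, so the letters do not tell which factor, if any, binds. All coordinates are GRCm38.p6.
Gdf15, chr8:70632166-70632185, minus strand: ggcagggCACGTGtgagcat
Ctsd, chr7:142387913-142387932, minus strand: cgcgtctCACGTGacccgtt
Ctsd, chr7:142388060-142388077, minus strand: tccccCACGTGacctgta
Atp6v1a, chr16:44139378-44139397, minus strand: tttaaatCACGTGataggct
Lgmn, chr12:102439129-102439148, minus strand: tgtctgtCACGTGgtccatt
Gadd45b, chr10:80929899-80929918, plus strand: tgaccccCACGTGgggccgc
Tnfaip3, chr10:19015431-19015450, minus strand: cgcgggtCACGTGactggaa
The sites lay 83 bases before the start site in Gdf15, 98 and 245 in Ctsd, 131 in Atp6v1a, 49 in Lgmn, 185 in Gadd45b and 33 in Tnfaip3. Of the 5 partner genes with the letters, Ctsd, Atp6v1a and Lgmn are lysosomal. In Gdf15-positive over Gdf15-negative macrophages, the MiT family gene Mitf had ratios of 1.34 and 0.896 on days 7 and 14. Tfeb had 0.958 and 1.30, and Tfec 0.908 on day 7 with too few UMIs on day 14.

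Lists of genes for the states in which Gdf15 is known to be made were compared in the same way, and 13 lists were examined. The lipid-associated macrophage and lysosome list had the highest share of the lists on day 7, when 17 of its 26 genes were at least 1.5-fold higher in positive cells and 2 were lower (against 2.63% and 3.52% of all genes), with a median log2 ratio of 0.73 against -0.06 over all genes. On day 14 it was 7 of 23 with 4 lower, against 5.82% and 11% of all genes, a median of 0.37 against -0.03, and with each cluster weighted alike in both groups 4 genes were higher. On day 3 it was 13 of 24 against 7.36%. Trem2, Cd63, Ctsd, Lgals3, Plin2 and Mmp12 were higher on both days 7 and 14, where 1.14% of all genes were. The day 14 Mmp12 call leaned on 1 cell, with 35 of 86 UMIs of positive cells, and UMIs in 5 of 39 cells. For Plin2, 31 of 190 UMIs of day 14 positive cells lay in 1 cell. Apoe, the apolipoprotein that carries lipid out of macrophages, was at 19689.6 against 7792 CPM on day 7 and 21548 against 18415 CPM on day 14, but within cluster 8 alone its day 14 ratio turned to 0.882 (0.859 to 0.905). Spp1, encoding osteopontin, had ratios of 0.948 and 0.555, but within cluster 8 alone it was higher in positive cells, at 1.46-fold (1.32 to 1.60) and 1.45-fold (1.11 to 1.90).

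The NRF2 and haem response list had 9 of 16 genes higher on day 7 and 4 of 13 on day 14, against 2.63% and 5.82% of all genes, with medians of 0.82 and 0.49. Ftl1, a ferritin chain that stores iron, was higher on both days (1.77- and 1.67-fold). Hmox1, which breaks down haem, was 3.13-fold higher on day 7 and 0.844-fold on day 14. Within cluster 8 alone its ratios were 1.48 (1.27 to 1.72) and 0.810 (0.568 to 1.14), so the day 7 call was lost. Nfe2l2 itself was 1.25-fold and 1.57-fold higher. On day 3 none of 14 genes of this list was higher, where 7.36% of all genes were. The day 7 ratio of the iron exporter Slc40a1 (21.3) came from 23 of 29 UMIs in 1 cell.

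The inflammatory macrophage list had 10 of 17 genes higher on day 7, 3 of 14 on day 14 and 4 of 15 on day 3, against 2.63%, 5.82% and 7.36% of all genes. With each cluster weighted alike in both groups the day 7 count fell to 4. Cxcl1 and Tnfaip3 were higher on both days 7 and 14. The Cxcl1 calls leaned on single cells, with 80 of 273 and 60 of 144 UMIs of positive cells in 1 cell each. Il1b, the gene of interleukin 1 beta, went the other way, at 1057 CPM in positive against 1828 CPM in negative cells on day 7 (0.578-fold) and at 1586 against 1829 CPM on day 14 (0.867-fold).

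Of the integrated stress response genes, none of 17 was higher on day 7 and 1 was lower, against 2.63% and 3.52% of all genes. The median log2 ratio was 0.14. On day 14 it was 3 of 11 (27.3%, against 5.82% of all genes) with none lower (against 11%) and a median of 0.44. The 3 genes were the cystine transporter genes Slc7a11 (4.86-fold, with 16 of 18 UMIs of positive cells in 1 cell) and Slc3a2 (1.84-fold) and the transcription factor gene Cebpb (1.64-fold). Atf4, the main factor of this response, was at 240 against 221 CPM on day 7 (1.08-fold, 0.967 to 1.21) and at 254 against 246 CPM on day 14 (1.03-fold, 0.822 to 1.28). Ddit3 had ratios of 1.16 (0.922 to 1.44) and 1.40 (0.977 to 1.99). Atf3 had ratios of 1.33 and 1.09, at 1020 and 1846 CPM in positive cells. Atf4 acts largely through translation of its RNA, which UMIs do not measure.

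Of the p53 targets, 2 of 14 were higher on day 7 and 3 of 12 on day 14, against 2.63% and 5.82% of all genes. Mdm2, which encodes the ligase that degrades p53, was 1.67- and 2.22-fold higher, and Plk2 2.12- and 1.89-fold. Their day 14 ratios leaned on single cells, as 35 of 79 Mdm2 and 27 of 97 Plk2 UMIs of positive cells lay in 1 cell each. Cdkn1a, the cell cycle inhibitor p21, had ratios of 1.16 and 1.22, and Trp53 itself of 0.843 and 0.663. ER chaperone genes had 0 of 12 higher on each day. Hypoxia and glycolysis genes had 0 of 13 and 2 of 12. With so few genes, a count of 0 lies near the share over all genes.

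Among immediate early genes, which also respond to tissue digestion, 3 of 22 were higher on day 7, all of them Egr genes, and 2 of 22 on day 14, against 2.63% and 5.82% of all genes, the latter count being near its background. On day 14 5 of 22 were lower, with a median log2 ratio of -0.31, where 11% of all genes were lower, and within cluster 8 8 of 21 were lower on that day against 10.4%. Egr1 was at 791 against 452 CPM on day 7 (1.75-fold) and at 545 against 895 CPM on day 14 (0.609-fold). Fos had ratios of 1.14 and 1.01 and Jun of 1.03 and 0.690. Interferon-stimulated genes had 1 gene higher on each day, Rsad2 (1.83- and 3.17-fold, with 98 of 160 and 21 of 44 UMIs of positive cells in 1 cell), of 12 and 10 compared, and 3 lower on each day, against 3.52% and 11% of all genes. Within cluster 8 alone 3 of 12 were higher and none lower on day 7, against 3.11% and 4.75% of all genes. On day 14 it was 1 of 9 higher and 5 lower there, against 8.44% and 10.4%.

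**Figure D5:**
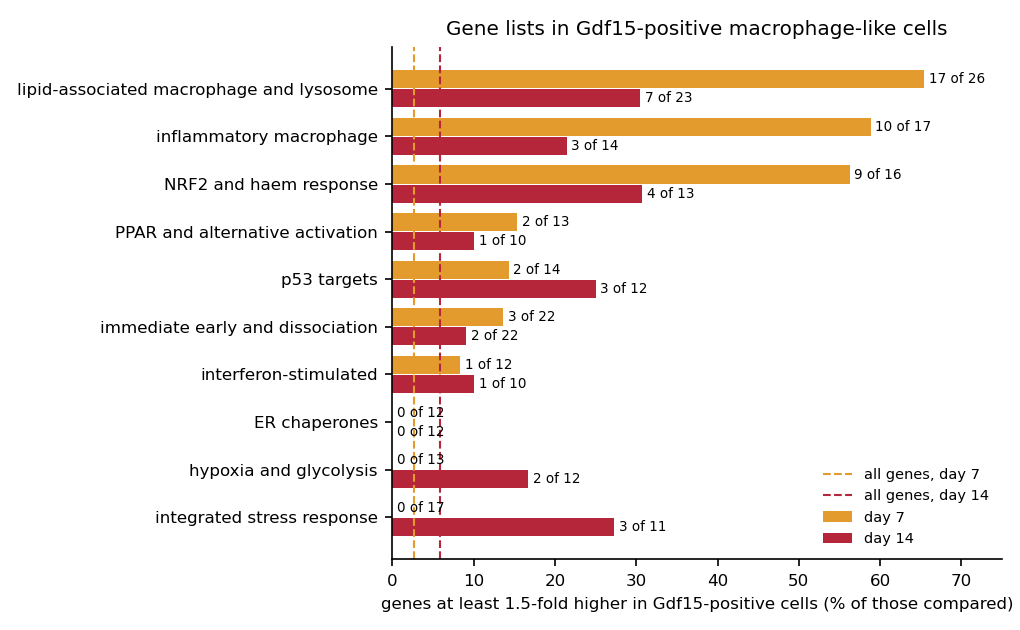
Share of the genes of each list drawn that are at least 1.5-fold higher in Gdf15-positive macrophage-like cells (%), with the count beside each bar. The lists of proliferation, other TGF-beta family ligands, and Gdf15 ligand, receptor and processing are not drawn. They had 6, 3 and 3 genes compared on day 14. Dashed lines give the share over all genes, 2.63% on day 7 and 5.82% on day 14. The lipid-associated and lysosome, inflammatory and NRF2 lists exceed 50% on day 7 and lie between 21.4% and 30.8% on day 14, where the integrated stress response (27.3%) and p53 (25%) lists lie in the same range.

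Proliferation genes were lower in positive cells of the whole class on day 7. All 12 proliferation genes compared on day 7 were at least 1.5-fold lower, where 3.52% of all genes were, and 5 of 6 on day 14 against 11% of all genes. Within cluster 8 alone the day 7 difference was not seen, as none of the 4 genes that could be compared was lower (against 4.75% of all genes). The median log2 ratio there was -0.01. On day 14 1 of 2 was lower and 1 higher in that cluster, against 10.4% and 8.44% of all genes. In the whole class, Mki67 was at 16.8 against 53.3 CPM and at 8.38 against 49.5 CPM. The PPAR and alternative activation list was mixed. On day 7 6 of 13 genes were lower and 2 higher, namely Pparg (2.36-fold), which encodes a lipid-sensing nuclear receptor, and Folr2 (2.56-fold). On day 14 5 of 10 were lower and 1 higher, Ccl24, with all 43 of its UMIs in positive cells in 1 cell. Of all genes, 3.52% and 11% were lower and 2.63% and 5.82% higher on days 7 and 14. Within cluster 8 it was 3 lower and 2 higher of 9 on day 7, with a median log2 ratio of 0.08, and 2 lower and 1 higher of 6 on day 14. There 4.75% and 10.4% of all genes were lower and 3.11% and 8.44% higher. In the whole class, Chil3, Mgl2, Clec10a and Retnla were lower on both days, where 1.3% of all genes were. The Retnla call of day 7 says little, since its 127 UMIs lay in 2 cells of 951, and on day 14 all 48 UMIs of positive cells lay in 1 cell. Chil3 was at 9.69 against 70.6 CPM on day 7 and 2.1 against 44.6 CPM on day 14. Ranked by the higher of the 2 r values, the most negative gene was Ccr2, the chemokine receptor of recruited monocytes. Its r was -0.200 on day 7 and -0.165 on day 14, and its level was 0.472-fold and 0.396-fold.

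From the TGF-beta family, Gdf3 was higher in positive cells on both days (2.86- and 2.80-fold), and Inhba, the subunit of activin A, on day 7 (2.98-fold, with 37 of 44 UMIs of positive cells in 1 cell). The Gdf3 ratios leaned on single cells too, with 21 of 55 and 20 of 35 UMIs of positive cells in 1 cell each. Tgfb1, the most abundant ligand of the list examined, which leaves out Gdf15 itself, had ratios of 0.861 and 0.920. Of the 17 ligand genes of this list, 6 had enough UMIs to compare on day 7 and 3 on day 14. On day 7, 2 were higher and none lower, against 2.63% and 3.52% of all genes. On day 14, 1 was higher and 1 lower, against 5.82% and 11%.

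Since positive cells lay mostly in cluster 8, the comparison was repeated within it, a step chosen after seeing the data. It had 60 positive and 192 negative cells on day 7 and 28 and 66 on day 14, with median depths of 14626 against 12882 and 14696.5 against 9269.5 UMIs. Of the 20 genes, 15 were at least 1.5-fold higher on day 7 against 3.11% of all genes, and 8 on day 14 against 8.44%. These counts too follow from the choice of the genes, which used the same cells. Their median ratios were 1.92 and 1.46. Cxcl2 on day 14 was the only one below 1 (0.834). Ctsd was at 2.75- and 1.73-fold, Lgals3, which encodes galectin-3, at 1.73- and 2.61-fold, Mdm2 at 1.85- and 2.11-fold and Gdf3 at 1.76- and 1.98-fold. Over all macrophage-like cells, 35 of 79 Mdm2 and 20 of 35 Gdf3 UMIs of day 14 positive cells lay in 1 cell each. Of the inflammatory list 4 of 15 and 1 of 14 genes were higher, and of the lysosome list 14 of 26 and 6 of 22. The NRF2 list had 8 of 16 and 5 of 13 higher, the p53 list 2 of 13 and 4 of 11, and the integrated stress response list 2 of 14 and 3 of 10, so on day 14 each of these held a larger share than the lysosome list. On that day 2 genes of the p53 list and 1 each of the lysosome and inflammatory lists were lower. None of the NRF2 and integrated stress response lists was lower, and differences between lists were not tested. Ccr2 was at 0.422- and 0.275-fold, where 4.75% and 10.4% of all genes were at least 1.5-fold lower.

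Most marker lists of other cell types were not higher in positive cells. In positive against negative cells the fibroblast list summed to 798 against 1024 CPM on day 7 and 803 against 1080 CPM on day 14, the dendritic list to 98.2 against 272 and 60.8 against 209 CPM, and the neutrophil list to 91.7 against 278 and 21.0 against 60.1 CPM. The T cell list (24.5 against 15.1 CPM on day 7 and 12.6 against 4.85 CPM on day 14) and, on day 7, the plasmacytoid dendritic list (227 against 189 CPM) were higher, at low levels. Outside the macrophage list no marker that could be compared was 1.5-fold higher. Of the 18 macrophage markers, 6 were higher on day 7 and 3 on day 14, against 2.63% and 5.82% of all genes.

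Across classes and days, the genes with a pattern most like that of Gdf15 were sought over 25 class-by-day sums of at least 20 cells, by Pearson r of log2 CPM with 10 CPM added over 12915 genes. The closest were Gm5086 (0.796), Lilra5 (0.783), Lyz1 (0.761), Retnla (0.757), Pparg (0.745), Cib2 (0.715), Gdf3 (0.713), Dppa3 (0.709), Cdk18 (0.703) and Zfp703 (0.702). All but Zfp703 had their highest sum in macrophages of day 14, whereas Zfp703 was at 126, 88.8 and 113 CPM in those of days 3, 7 and 14. Without the 3 macrophage sums r ranged from -0.204 for Gdf3 to 0.701 for Zfp703. The points come from 4 libraries of unequal depth. Retnla had a like pattern across classes and not among cells. It was at 0.740, 13.3 and 489 CPM in macrophage-like cells of days 3, 7 and 14, yet on day 14 it was at 101 CPM in Gdf15-positive against 669 CPM in Gdf15-negative cells.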

How the data were processed

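The deposited matrices give unnormalised UMI counts (genes by barcodes) for 4 libraries, and the authors made them with Cell Ranger (3.0.2 in the file headers, another version in the methods text); no column was left out. The named genome is a human build although the genes are mouse, so coordinates are printed only for RefSeq promoter windows (GRCm38.p6). Barcodes with under 200 genes or over 20% mitochondrial UMIs were removed (453 of 6161), as was the shallower copy of each barcode shared by 2 libraries. Scrublet in scanpy 1.11.5 marked only 15 barcodes (0.243%) as doublets, so the highest scores were removed at 0.8% per 1000 barcodes (106, or 1.72%). In the day 0 library this rule was the milder one, as Scrublet marked 10 barcodes and 1 was removed. The files carry no note of earlier doublet removal.

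Counts were scaled to 10000, and 2000 variable genes, 30 components and 15 neighbours were used for clustering with the Leiden method (igraph 0.11.9, resolution 1). A class needed 3 markers, and since the study's own annotation was not used, rebuilt names may be the source of any difference from it. Levels are CPM of summed counts. With 1 library per day no test across samples was made. Named genes were the first 20 by the lower r of days 7 and 14, the 10 of most similar pattern, members of the lists and known regulators and receptors. One named gene is not reported here. A gene was compared where it had at least 20 UMIs. The measures were tested on simulated data. The gene, lists and rules were chosen with earlier results of these data known.

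Alternatives tried were no doublet removal, other filters and resolutions, clustering each library on its own, thinning, mean cell CPM, other pseudocounts (1 and 50 CPM), positive cells of at least 2 UMIs, and cluster weighting. Keeping shared barcodes, leaving out the highest cells and leaving out cluster 18 were chosen after seeing the data.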

Additional observations from a re-analysis of the deposited data

Results flagged for a closer look

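Gdf15 moved in opposite directions in different cell classes between days 7 and 14, with a day 14 over day 7 ratio of 4.40 in macrophage-like cells and of 0.329 in fibroblast-like cells. Both were read from the same pair of libraries, and the difference was not tested since there was 1 library per day. The fibroblast-like class changed its make-up between these days, with 45 cells of cluster 10 on day 7 and 1 on day 14. Over 8 alternatives its ratio was 0.318 to 1.11, so the opposite direction did not hold with a separate clustering of each library.

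Some listed genes had ratios of Gdf15-positive over Gdf15-negative macrophage-like cells on opposite sides of 1 on days 7 and 14, and none of these differences was tested. Gpnmb, a glycoprotein of lysosome-rich macrophages, had a ratio of 7.72 on day 7 and 0.309 on day 14. Its day 7 value came from 81 UMIs in 19 of 107 positive cells and 54 UMIs in 25 of 844 negative cells. On day 14 there were 8 UMIs in 3 of 39 positive cells and 56 UMIs in 7 of 151 negative cells, with 36 in 1 cell. Egr1 had ratios of 1.75 and 0.609 and was spread widely, with UMIs in 94 of 107 positive cells on day 7 and 32 of 39 on day 14. Folr2, a folate receptor of resident macrophages, had ratios of 2.56 and 0.552. The chemokine gene Ccl7 had ratios of 1.54 and 0.540, with 33 of 50 UMIs of the day 14 positive cells in 1 cell. Fabp4, a fatty acid carrier, had ratios of 2.42 and 0.0636, the latter from 1 UMI in positive cells and 34 in negative cells, 27 of them in 1 cell. Ccl24 had ratios of 0.209 and 15.5, and all 43 UMIs of the day 14 positive cells lay in 1 cell.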

How the results depend on the processing

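Without doublet removal the day 7 level in macrophage-like cells was 115 CPM and the day 7 over day 3 ratio 9.07. With the mean of the CPM of each cell, the levels of days 7 and 14 were 81.8 and 397 CPM and that ratio was 4.94. Thinning gave positive shares of 1.20%, 6.68% and 12.9% at 2000 UMIs and 1.31%, 4.52% and 13.3% at 1000 UMIs on days 3, 7 and 14. Without the 5 highest cells of each library, an alternative chosen after seeing the data, levels were 5.07, 79.8 and 189 CPM and the ratios 15.7 and 2.36. Of the first 20 genes, 11 remained among the first 20 when cells were thinned to 2000 UMIs, 14 with Spearman rho or the stricter cell filter, 15 without cluster 18 and 17 to 20 in the other alternatives, and 19 or 20 kept r above 0 in the 12 alternatives run. With each cluster weighted alike, the lysosome list had 4 genes higher on day 14, the inflammatory list 4 on day 7 and the first 20 genes 9 on day 14. Over 14 alternatives the lysosome list had 13 to 19 genes higher on day 7, the NRF2 list 6 to 10 and the integrated stress response list 0 to 2. In these alternatives no ratio of Gdf15 between days reversed in macrophage-like cells. In the other classes ratios did turn. For fibroblast-like cells, the day 7 over day 3 and day 14 over day 7 ratios were 0.615 and 0.736 without doublet removal, 0.457 and 0.863 with the stricter cell filter, 0.589 and 0.763 at resolution 0.5, 0.680 and 0.601 at resolution 2, 0.675 and 1.11 with each library clustered on its own and 0.527 and 0.802 with shared barcodes kept. The first was 2.56 with the mean of cells and 2.54 without the 5 highest cells, and the day 14 over day 0 ratio moved only with each library on its own (0.920). For smooth muscle-like cells both ratios were 0.235 and 5.21 without doublet removal, 1.69 and 1.06 at resolution 2, 1.36 and 0.558 with each library on its own, 1.72 and 1.08 with shared barcodes kept, 1.01 and 0.897 with the mean of cells and 0.733 and 0.270 without the 5 highest cells. Within cluster 8 alone, a step also chosen after seeing the data, some ratios of positive over negative cells turned: Spp1 from 0.948 and 0.555 to 1.46 and 1.45 on days 7 and 14, and on day 14 Apoe from 1.17 to 0.882, Cxcl2 from 1.04 to 0.834 and Atf3 from 1.09 to 0.823. The cause of these shifts was not tested.

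No paired analysis was possible because each day has 1 library. Depth limits the day 0 macrophages (3 cells), the smooth muscle-like cells of day 0 (2 Gdf15 UMIs) and all genes with few UMIs in the 23 and 39 positive cells of days 3 and 14. A share of positive cells misses cells whose Gdf15 RNA was not captured.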
